A study of Canis lupus familiaris with 89 samples.

Results

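In situ carcinomas of the canine mammary gland, lesions in which malignant epithelium has not crossed the basement membrane, were compared with carcinomas in 18 of the 89 libraries of a series of mammary tissue from 16 dogs. The groups were taken from the detailed histology in the labels and from no measured value. That label is in situ carcinoma for 3 libraries and carcinoma for 15 libraries, while mixed carcinomas carry a label of their own and were not counted in either group. The dogs were of diverse breeds per the series' design text, and the labels name no treatment or genotype and give no age or breed for single dogs.

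In situ carcinoma 1 came from dog 13, in situ carcinoma 2 from dog 54 and in situ carcinoma 3 from dog 83. The longer diagnosis of in situ carcinoma 1 names nothing else. That of in situ carcinoma 2 adds ectatic ducts, hyperplastic lobules and papillomatosis with atypia, and that of in situ carcinoma 3 adds papillomatosis and epitheliosis of the ducts. All 3 lesions had a diameter of 0.5, in a unit that the labels do not state. The 15 carcinomas came from 11 dogs, and the diameters of the 14 with a value ran from 0.5 to 8 with a median of 2.35. The longer diagnosis of 3 of the 15 carcinomas also holds the words in situ or intraductal. Dog 54 was the 1 dog with both types, with 3 of the carcinomas. Each tissue was pulverized whole, so that a library holds epithelium, stroma and immune cells together, and fewer cells of a type cannot be told apart from less RNA per cell.

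The basement membrane separates mammary epithelium from the interstitial matrix, where fibroblasts, vessels and most immune cells of the gland lie, and an invasive carcinoma grows into that stroma. Cells show peptides to T cells on MHC class I molecules, which nearly all cells carry, and on MHC class II molecules, which are typical of dendritic cells, macrophages and B cells. Both systems are raised by interferons. The interleukin 17 receptors are heteromers in which IL17RA pairs with a more restricted chain, such as IL17RC for interleukin 17A and 17F or IL17RE for interleukin 17C.

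Gene reads came to between 33.3 and 42.9 M in the in situ carcinomas and between 6.23 and 68.4 M in the carcinomas, a difference in means of -2.37 M (two-sided exact permutation test, p = 0.738, adjusted p over 3 such tests 0.738). RNA integrity numbers were 9.7 and 6.9 in in situ carcinomas 1 and 2 and are not given for in situ carcinoma 3. They differed from those of 14 carcinomas by -0.986 in the mean (exact permutation p = 0.333, adjusted p = 0.5). Diameter was smaller in the in situ carcinomas by a mean difference of -2.56 (0.5 in each of 3, against a mean of 3.06 ± 2.67 in carcinomas, SD, n = 14), with an exact permutation p of 0.0294 and an adjusted p of 0.0882. Every result rests on 3 lesions from 3 dogs on the in situ side. EPCAM, an adhesion molecule of epithelial cells, had 1992, 1370.0 and 1266 CPM (counts scaled to a common library size) in in situ carcinomas 1, 2 and 3, against a lowest value of 405, a median of 967 and a highest of 1761 CPM in carcinomas, with all 3 lesions above 12 of the 15 carcinomas. EPCAM is 1 of 43 luminal epithelial genes tested. Their summed level was 8718, 13416.5 and 22712 CPM in in situ carcinomas 1, 2 and 3, against a carcinoma median of 21306 CPM. Below the carcinoma median were 23, 11 and 13 of the 43 genes in the same order of lesions.

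Genes were tested with edgeR's quasi-likelihood test on all 89 libraries with dog as a block, and a gene was called where its p, adjusted by the Benjamini-Hochberg method, was under 0.05. Of 20243 genes tested, 2 were called higher in in situ carcinoma (0.00988% of genes) and 0 were called lower (0%). At an unadjusted p under 0.05, which a share of about 0.05 of unchanged genes passes, 556 genes were higher (2.75%) and 631 lower (3.12%). With DESeq2 on the same design, 21 genes were called higher (0.104%) and 222 lower (1.1%). Many of these lower calls fell on genes without a symbol that averaged below 0 in log2 CPM and had extreme fold changes. ENSCAFG00000009548, for example, had a log2 fold change of -32.2 at an average log2 CPM of -3.25. All further fold changes are log2 values of in situ carcinoma over carcinoma from the edgeR fit with their SE, and a gene is said to have changed only where it was called. The words higher and lower at p under 0.05 refer to the unadjusted p.

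Both called genes encode interleukin 17 receptor chains. IL17RC, the chain that with IL17RA binds interleukin 17A and 17F, had 538, 283 and 176 CPM in in situ carcinomas 1, 2 and 3, against 83.3, 151 and 189.8 CPM as the lowest, median and highest of the carcinomas. In situ carcinomas 1 and 2 exceeded every carcinoma, while in situ carcinoma 3 lay inside their range, above 12 of the 15. The log2 fold change was 1.22 ± 0.23 (adjusted p = 0.0272, edgeR's quasi-likelihood test). IL17RE, the chain that binds interleukin 17C on epithelial cells, had 128, 50.1 and 32.9 CPM in in situ carcinomas 1, 2 and 3, against 12.3, 19.2 and 28.7 CPM as the lowest, median and highest of the carcinomas. All 3 in situ libraries lay above all 15 carcinomas, a pattern shared by 15 genes of all those tested (0.0741%). Its log2 fold change was 1.76 ± 0.34 (adjusted p = 0.0272, edgeR's quasi-likelihood test).

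Within the dogs the 2 receptor genes stood apart in 2 of the 3 animals. In dog 13, IL17RC had 538 CPM in the in situ carcinoma, against 123 to 165 CPM in the 5 other tissues of that dog. In dog 54 it had 283 CPM in the in situ carcinoma, against 157, 145 and 135 CPM in the 3 carcinomas and 189 and 192 CPM in the 2 atypias. In dog 83 the in situ carcinoma, with 176 CPM, was below the 2 lobular hyperplasias with 284 and 292 CPM and close to the adenoma with 177 CPM. The labels give both hyperplasias a lower RNA integrity number than that adenoma, and the in situ carcinoma has none. What RNA quality adds within this dog was not tested. IL17RE in dog 83 had 32.9 CPM in the in situ carcinoma, against 53.3 and 32.7 CPM in the hyperplasias and 31.4 CPM in the adenoma. Without in situ carcinoma 1 the log2 fold changes were 0.56 for IL17RC and 0.83 for IL17RE, and no gene was called. Without in situ carcinoma 2 they were 1.34 and 2.03, neither receptor was called (adjusted p = 0.0913 and 0.0694 by edgeR), and EMID1 was the 1 gene called. Without in situ carcinoma 3 they were 1.68 and 2.30, and 12 genes were called.

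**Figure D1:**
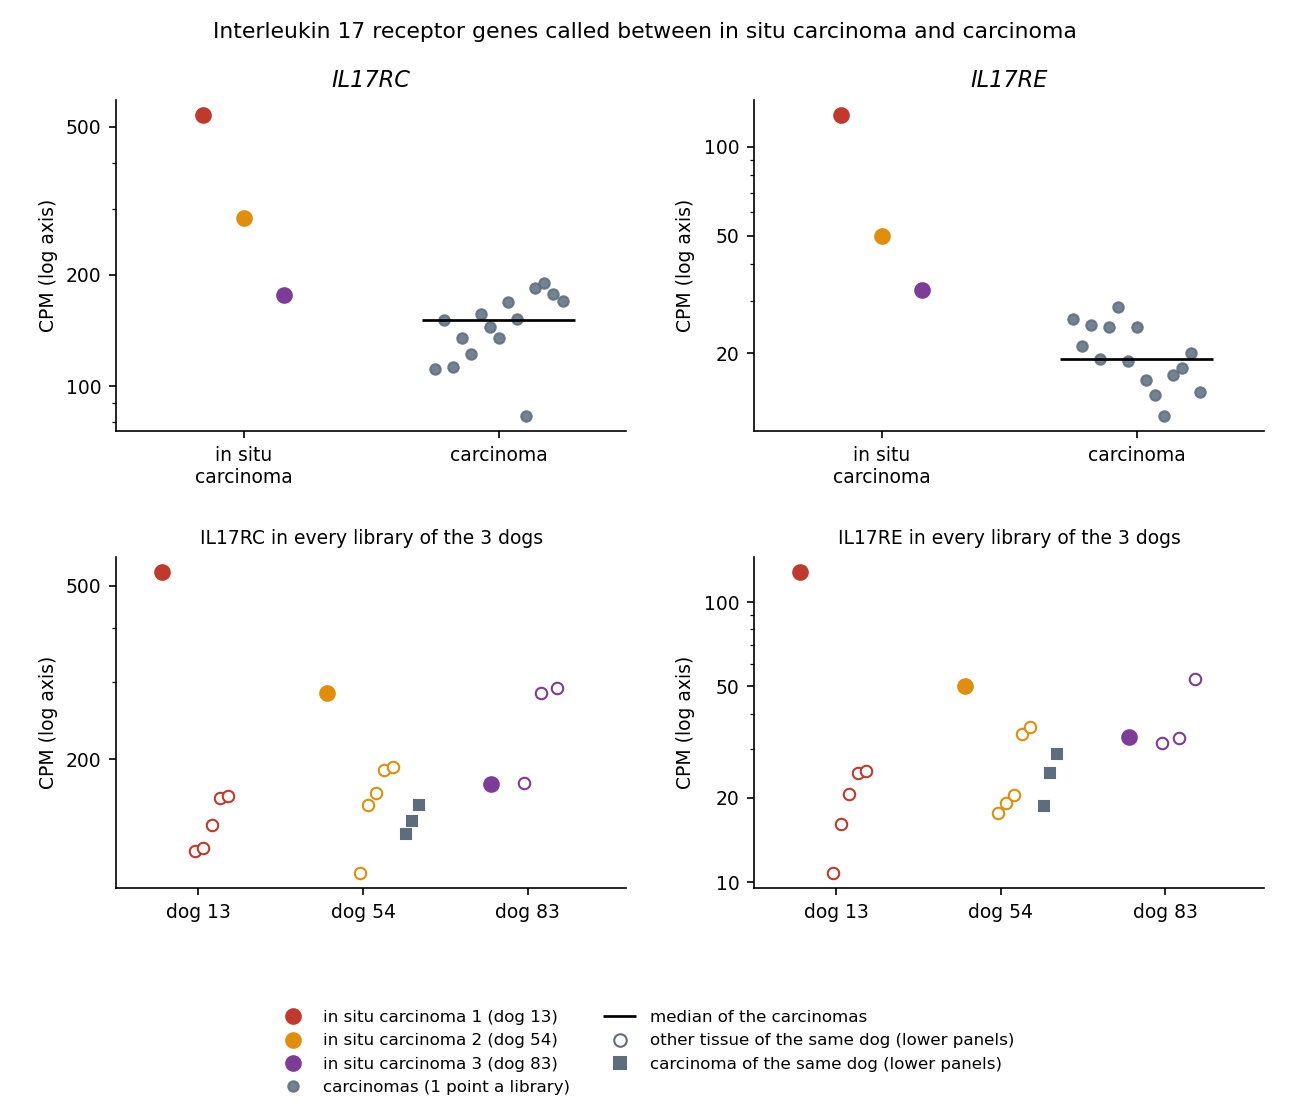
CPM (log axis) of IL17RC and IL17RE, with 1 point for each library. The upper panels set the 3 in situ carcinomas left of the 15 carcinomas, whose median is the horizontal line, and the lower panels show every library of the 3 dogs with an in situ carcinoma. In situ carcinoma 1 is the highest library for both genes, and in situ carcinoma 3, with 176 CPM of IL17RC, lies below the 284 and 292 CPM of the hyperplasias of its own dog.

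The genes of IL17RC and IL17RE overlap at their ends in the RefSeq table of the dog assembly UU_Cfam_GSD_1.0, which served for names and neighbours only. Whether the counting used strand is not given in the labels or processing notes, and reads of the shared stretch cannot be assigned to 1 of the genes. The other chains were looked up after these values had been seen. IL17RA, the shared chain, had 231, 273 and 305 CPM in in situ carcinomas 1, 2 and 3, against 191, 308 and 354 CPM as the lowest, median and highest of the carcinomas, with a log2 fold change of -0.15 ± 0.19. IL17RB, a chain for interleukin 17B and 17E, had a log2 fold change of 0.09 ± 0.47 and IL17RD, a modulator of receptor signalling, one of 1.41 ± 0.81, and neither was called. EMID1, a secreted protein with an EMI and a collagen domain, was also added after its values were seen. It had 369, 11.4 and 41.9 CPM in in situ carcinomas 1, 2 and 3, against 4.97, 13.9 and 42.7 CPM as the lowest, median and highest of the carcinomas. Its fold change rested on in situ carcinoma 1, since the log2 value was 2.67 ± 0.57 with all 3 lesions (adjusted p = 0.0910 by edgeR) and 0.22 without that lesion.

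Genes of MHC class I presentation were mostly lower in the in situ carcinomas, without any of them passing the adjusted threshold. Of 15 members tested, 8 were lower and 1 higher at p under 0.05, and 14 had a negative fold change, with a median of -0.56 against 0.01 over all genes tested. DESeq2 called 3 of them lower. B2M, the invariant light chain of class I molecules, had 1272, 1162 and 5746 CPM in in situ carcinomas 1, 2 and 3, against 1735, 5624 and 13010.1 CPM as the lowest, median and highest of the carcinomas. The first 2 lesions lay below every carcinoma, and in situ carcinoma 3 just above the carcinoma median. The log2 fold change was -2.01 ± 0.51 (adjusted p = 0.342 by edgeR). Each lesion was also below the adenoma level of its own dog. The only adenoma of dog 13 had 5761 CPM and the only adenoma of dog 83 had 17725 CPM. The adenomas of dog 54 averaged 6987 CPM.

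NLRC5, the transactivator of class I genes, had 16.2, 12.4 and 54.2 CPM in in situ carcinomas 1, 2 and 3, against 17.1, 63.6 and 212 CPM as the lowest, median and highest of the carcinomas (log2 fold change -1.82 ± 0.56). As with B2M, in situ carcinomas 1 and 2 were below all carcinomas and the third lay among them. PSMB8, a catalytic subunit of the immunoproteasome, had 9.78, 21.4 and 49.7 CPM in the in situ carcinomas, against 5.97, 48.8 and 119.9 CPM as the lowest, median and highest of the carcinomas (log2 fold change -1.52 ± 0.48), and the groups overlapped. PSMB9, its partner subunit, differed by -1.37 ± 0.50 and TAP1, a subunit of the transporter that carries peptides into the endoplasmic reticulum, by -0.95 ± 0.32, with overlapping groups for both. TAPBP, which holds class I molecules at that transporter, differed by -0.43 ± 0.20, and ERAP2, which trims peptides, by -1.68 ± 0.65. FCGRT was the 1 member in the other direction. It encodes the heavy chain of the neonatal Fc receptor, which recycles immunoglobulin G and albumin and is kept in the list for its class I fold. FCGRT had 142, 93.5 and 77.2 CPM in in situ carcinomas 1, 2 and 3, against 36.8, 63.5 and 116 CPM as the lowest, median and highest of the carcinomas (log2 fold change 1.00 ± 0.33), with all 3 lesions above the carcinoma median.

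The class I count depended on how the dogs entered the fit. Among the 18 libraries without a block, 1 of the 15 members was lower at p under 0.05 (4.62% of all genes were lower in that fit), while the median fold change was -0.50. Without in situ carcinoma 1 the count with the block was 2 (1.48% of all genes were lower), without in situ carcinoma 2 it was 4 (1.99%) and without in situ carcinoma 3 it was 7 (6%). The same shares of all genes apply to the counts of lower genes in every other list when that lesion was left out. Against the 5 carcinomas with a diameter up to 1, the class I count was 7 (3.24% of all genes), with a median of -0.59. That set holds the carcinomas of dog 54 with diameters of 0.7 and 1, and a carcinoma each of dogs 66, 69 and 89. It thus overlaps with the contrast within dog 54, and the carcinoma of dog 69 was the shallowest of the 18 libraries.

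The MHC class II list, which also holds costimulatory genes such as CD40 and CD86, was lower in most members. Of 15 tested, 9 were lower and none higher at p under 0.05, with a median log2 fold change of -1.27. DESeq2 called 5 of them lower, edgeR none at an adjusted p under 0.05. CD40, the costimulatory receptor of antigen-presenting cells, had the lowest p. It had 0.837, 0.678 and 5.96 CPM in in situ carcinomas 1, 2 and 3, against 1.26, 8.85 and 15.3 CPM as the lowest, median and highest of the carcinomas (log2 fold change -2.86 ± 0.63, adjusted p = 0.104 by edgeR). In situ carcinomas 1 and 2 were below all carcinomas and the third was below 12 of them. Without in situ carcinoma 3, CD40 was among the genes called lower, at a log2 fold change of -3.97 (adjusted p = 0.00343 by edgeR).

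HLA-DRA, the alpha chain of the DR molecule, had 300.0, 127 and 269.8 CPM in in situ carcinomas 1, 2 and 3, against 179, 531 and 1319 CPM as the lowest, median and highest of the carcinomas. All 3 lesions were below 14 of the 15 carcinomas, and the log2 fold change was -1.79 ± 0.48 (adjusted p = 0.342 by edgeR). HLA-DMA, part of the DM molecule that loads peptides, had 32.0, 17.2 and 52.2 CPM in the in situ carcinomas, against 29.8, 96.6 and 153 CPM as the lowest, median and highest of the carcinomas (log2 fold change -1.75 ± 0.43). CD74, the invariant chain that guides class II molecules to the endosome, had 425, 468 and 989 CPM in the in situ carcinomas, against 336, 1547 and 2701 CPM as the lowest, median and highest of the carcinomas (log2 fold change -1.69 ± 0.47). For these 3 genes every lesion was below the carcinoma median, with overlap of the groups at the low end.

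CD86, a costimulatory ligand for T cells, did not overlap between the groups. It had 16.8, 12.4 and 34.2 CPM in in situ carcinomas 1, 2 and 3, against 38.5, 78.7 and 149 CPM as the lowest, median and highest of the carcinomas (log2 fold change -1.67 ± 0.56). All 3 libraries below all 15 is a pattern of 59 genes of all those tested (0.291%). CD80, the related ligand, differed by -1.63 ± 0.62 and CIITA, the master transactivator of class II genes, by -1.27 ± 0.51. The class II count was 8 among the 18 libraries without the block, 9 against the small carcinomas and between 5 and 9 when each lesion was left out in turn.

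Interferon response genes formed the longest list in which most members were lower at p under 0.05 in the fit with the block. Of 50 members tested, 29 were lower and none higher at p under 0.05, and 47 had a negative fold change, with a median of -1.01. DESeq2 called 5 lower and edgeR none. OAS2, an antiviral enzyme that senses double-stranded RNA, had 22.96, 32.1 and 109 CPM in in situ carcinomas 1, 2 and 3, against 46.0, 161 and 374 CPM as the lowest, median and highest of the carcinomas (log2 fold change -1.81 ± 0.47, adjusted p = 0.342 by edgeR). In situ carcinomas 1 and 2 were below all carcinomas, and the third was below 12.

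IFIT3, which binds viral RNA together with its sister proteins, was low throughout, with 0.747, 0.824 and 0.810 CPM in in situ carcinomas 1, 2 and 3, against 0.839, 2.27 and 7.93 CPM as the lowest, median and highest of the carcinomas (log2 fold change -1.88 ± 0.62). The groups were separate, by a narrow gap. OASL, a relative of OAS2, differed by -2.37 ± 0.78 and MX2, a dynamin-like antiviral GTPase, by -1.61 ± 0.54. IRF1, a transcription factor that interferon induces, differed by -1.27 ± 0.49, while JAK1, a kinase of the interferon receptors, differed by -0.08 ± 0.24. LAP3, a leucine aminopeptidase that interferon gamma induces in human cells, was among the genes of lowest p in the lower direction. LAP3 had 65.0, 76.5 and 107 CPM in in situ carcinomas 1, 2 and 3, against 83.6, 173 and 216 CPM as the lowest, median and highest of the carcinomas. The first 2 lesions were below every carcinoma and the third below 14, with a log2 fold change of -0.98 ± 0.25 (adjusted p = 0.342 by edgeR).

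In 33 of the 50 interferon genes each lesion was below the mean of the adenomas of its own dog, a pattern of 9.72% of all genes tested, and in none was each lesion above it. In dogs 13 and 83 that mean was the value of the only adenoma. The count at p under 0.05 was 10 among the 18 libraries without the block and 33 against the small carcinomas. It was 15 without in situ carcinoma 1, 12 without in situ carcinoma 2, 30 without in situ carcinoma 3, and 11 without all libraries of dog 54 (1.9% of all genes). The median fold change stayed between -1.33 and -0.80 in these fits, the fit with log2 diameter as a covariate included.

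**Figure D2:**
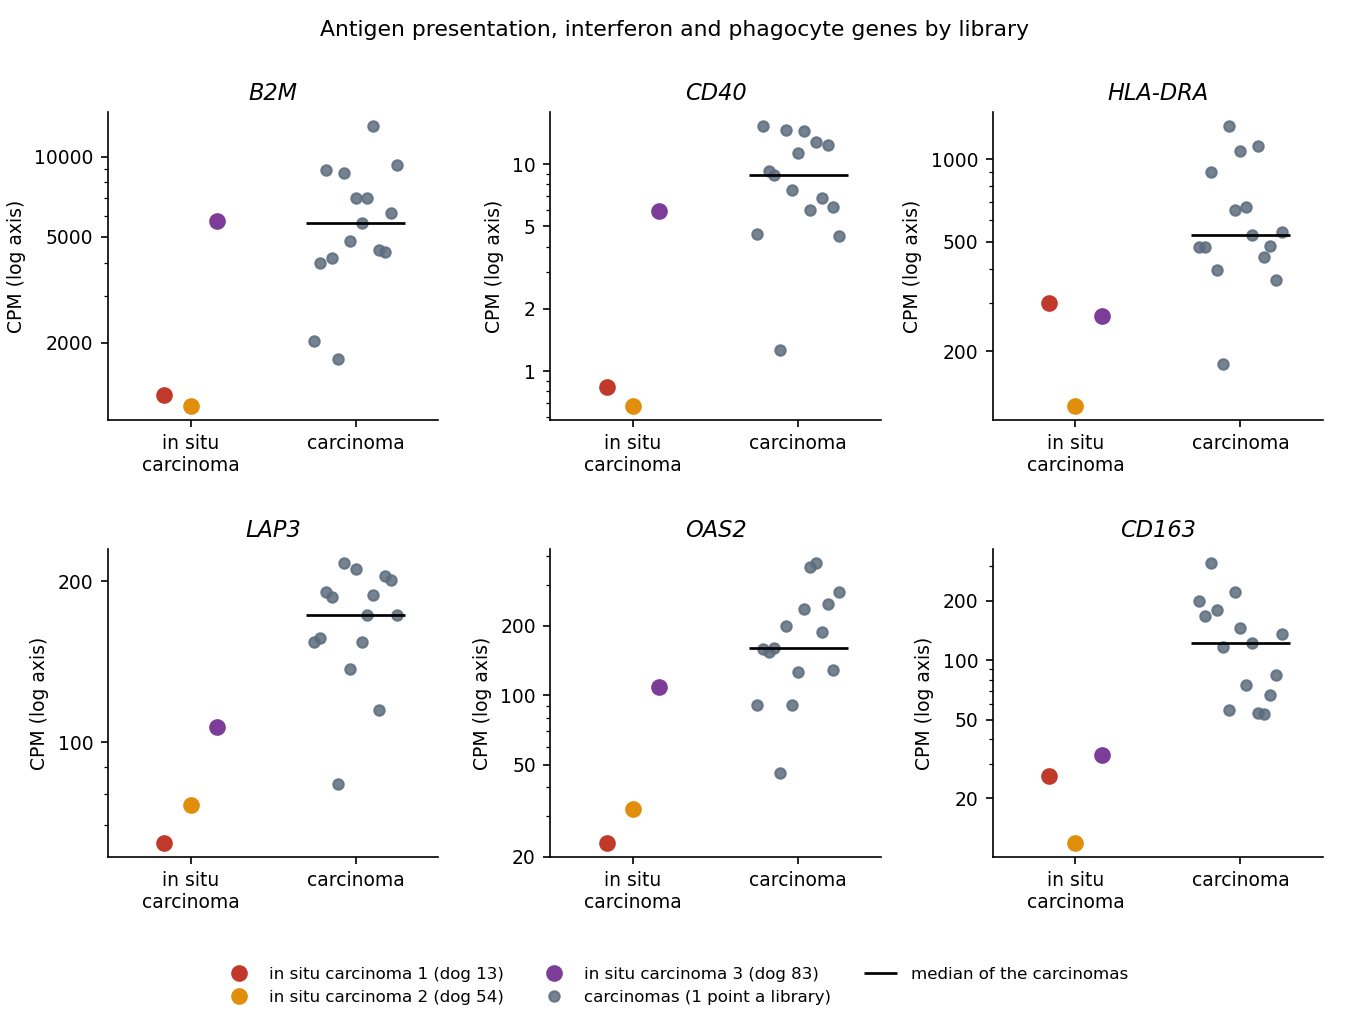
CPM (log axis) of B2M, CD40, HLA-DRA, LAP3, OAS2 and CD163, with the 3 in situ carcinomas left of the 15 carcinomas and the carcinoma median as a line. Each point is a library. In situ carcinomas 1 and 2 are below every carcinoma for B2M, CD40, LAP3 and OAS2, and all 3 lesions are below every carcinoma for CD163 alone among these genes.

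Macrophage and other myeloid genes were low in all 3 lesions. Of 43 members tested, 25 were lower and none higher at p under 0.05, and 42 had a negative fold change, with a median of -1.35. In 8 members all 3 lesions lay below all 15 carcinomas (0.291% of all genes), SPP1, CYBB, CD163, CSF1R, ADGRE1, TLR8 and MMP12 among them. In 35 members all 3 were below the carcinoma median (14.7% of all genes). CYBB, the catalytic subunit of the phagocyte oxidase, had 58.2, 56.1 and 86.5 CPM in in situ carcinomas 1, 2 and 3, against 125, 208 and 519.7 CPM as the lowest, median and highest of the carcinomas (log2 fold change -1.78 ± 0.61). CD163, a scavenger receptor of tissue macrophages, had 26.0, 11.9 and 33.0 CPM in the in situ carcinomas, against 53.7, 122 and 311 CPM as the lowest, median and highest of the carcinomas (log2 fold change -2.02 ± 0.65). Neither gene overlapped between the groups.

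CSF1R, the growth factor receptor that defines macrophages, had 96.3, 46.3 and 79.5 CPM in in situ carcinomas 1, 2 and 3, against 100.2, 233 and 402 CPM as the lowest, median and highest of the carcinomas. Its groups were separate by a narrow gap, and the log2 fold change with the block was -0.93 ± 0.52. ADGRE1, the F4/80 receptor, had 2.03, 0.315 and 2.08 CPM in the in situ carcinomas, against 4.16, 7.89 and 45.0 CPM as the lowest, median and highest of the carcinomas (log2 fold change -2.90 ± 0.95). SPP1, osteopontin, which tumour macrophages secrete, had 127, 113 and 251 CPM in the in situ carcinomas, against 279, 811 and 3316 CPM as the lowest, median and highest of the carcinomas (log2 fold change -1.84 ± 0.83). C1QC, a chain of complement C1q made by macrophages, differed by -1.96 ± 0.61, and SPI1, the transcription factor PU.1 of myeloid cells, by -1.84 ± 0.62. CD68, a lysosomal protein of macrophages, differed by -1.61 ± 0.72, with all 3 lesions below 14 of the carcinomas.

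NLRP1, CLEC5A and CLEC4E, which belong to no list, were among the genes of lowest p in the lower direction. NLRP1, an inflammasome sensor, had 1.35, 3.05 and 3.52 CPM in in situ carcinomas 1, 2 and 3, against 6.14, 15.5 and 32.6 CPM as the lowest, median and highest of the carcinomas (log2 fold change -2.25 ± 0.60). CLEC5A, a C-type lectin of myeloid cells, had 2.15, 0.896 and 4.79 CPM in the in situ carcinomas, against 5.64, 9.90 and 31.9 CPM as the lowest, median and highest of the carcinomas (log2 fold change -2.71 ± 0.77). CLEC4E, the lectin Mincle that binds microbial glycolipids, differed by -2.25 ± 0.63 and C5AR1, the receptor for complement fragment C5a, by -2.25 ± 0.66. In these 4 genes all lesions were below all carcinomas.

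The myeloid count was 33 among the 18 libraries without the block and 22 against the small carcinomas. It was 6 without in situ carcinoma 1, 7 without in situ carcinoma 2, 5 without all libraries of dog 54 and 32 without in situ carcinoma 3, with median fold changes of -1.16, -1.02, -0.91 and -2.03. In the fit of the 18 libraries with dog as a block, where the contrast comes from dog 54 alone and its 1 lesion against 3 carcinomas, 35 members were lower (6.04% of all genes), with a median of -2.49. Each lesion was below the mean of its own dog's adenomas in 12 of the 43 members (9.72% of all genes) and above it in 0 (9.54%). That mean again rested on the only adenoma in dogs 13 and 83.

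T cell and natural killer cell genes had a median log2 fold change of -1.37, and 5 of 26 members were lower at p under 0.05, with none higher. GZMA, a granzyme of cytotoxic cells, had 1.38, 0.0485 and 0.591 CPM in in situ carcinomas 1, 2 and 3, against 0.654, 1.65 and 24.3 CPM as the lowest, median and highest of the carcinomas (log2 fold change -3.02 ± 1.08). CD3E, a chain of the T cell receptor complex, had 2.72, 6.06 and 10.9 CPM in the in situ carcinomas, against 0.372, 11.8 and 42.8 CPM as the lowest, median and highest of the carcinomas (log2 fold change -1.38 ± 0.75). Both genes overlapped between the groups, and in situ carcinoma 3 was close to the carcinoma median for CD3E. The count moved with the libraries that entered. It was 19 without in situ carcinoma 3 (6% of all genes were lower), 1 without in situ carcinoma 1 (1.48%) and 0 without in situ carcinoma 2 (1.99%). Against the small carcinomas, a set that holds carcinomas of dog 54, it was 18 (3.24%). In the fit that rests on dog 54 alone 18 members were lower, and CD3E had 6.06 CPM in the in situ carcinoma, against 42.8, 26.2 and 39.0 CPM in the 3 carcinomas of that dog.

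Of 17 B and plasma cell genes 2 were lower, MZB1, a chaperone of antibody assembly, at -2.80 ± 1.35 and TNFRSF17, the survival receptor BCMA, at -2.96 ± 1.46. The B and plasma cell count was 11 without in situ carcinoma 3 (6% of all genes were lower), with a median of -1.84. It was 0 without in situ carcinoma 1 (1.48%) or in situ carcinoma 2 (1.99%), with medians of -0.35 and -0.69. In the fit that rests on dog 54 alone the median was -2.35. JCHAIN, which joins secreted antibodies, had 115, 385 and 1830.5 CPM in in situ carcinomas 1, 2 and 3, against 62.2, 3108 and 10579 CPM as the lowest, median and highest of the carcinomas, with overlap of the groups. Of 38 chemokine and cytokine genes 5 were lower and none higher, with a median of -0.71. The chemokine and cytokine count was 21 without in situ carcinoma 3 (6% of all genes were lower), with a median of -1.42. It was 1 without in situ carcinoma 1 (1.48%) or in situ carcinoma 2 (1.99%), with medians of -0.34 and -0.39. In the fit that rests on dog 54 alone the median was -2.02. CXCL10, a chemokine that interferon gamma induces and that draws T cells, had 10.6, 4.12 and 4.58 CPM in the in situ carcinomas, against 1.04, 19.3 and 307 CPM as the lowest, median and highest of the carcinomas (log2 fold change -2.90 ± 1.14). Complement genes were lower in 5 of 18 members, C1R and C1S, the proteases of the first component, among them at -1.31 ± 0.52 and -1.12 ± 0.49. The complement count was 2 without in situ carcinoma 1 (1.48% of all genes were lower), 2 without in situ carcinoma 2 (1.99%) and 8 without in situ carcinoma 3 (6%). Granulocyte and mast cell genes were lower in 0 of 14 with the block (5 among the 18 libraries without it and 5 with the block but without in situ carcinoma 3), although CSF3R, the receptor for granulocyte growth factor, had 0.179, 0.170 and 0.657 CPM in the in situ carcinomas, against 0.198, 1.64 and 39.9 CPM as the lowest, median and highest of the carcinomas.

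**Figure D3:**
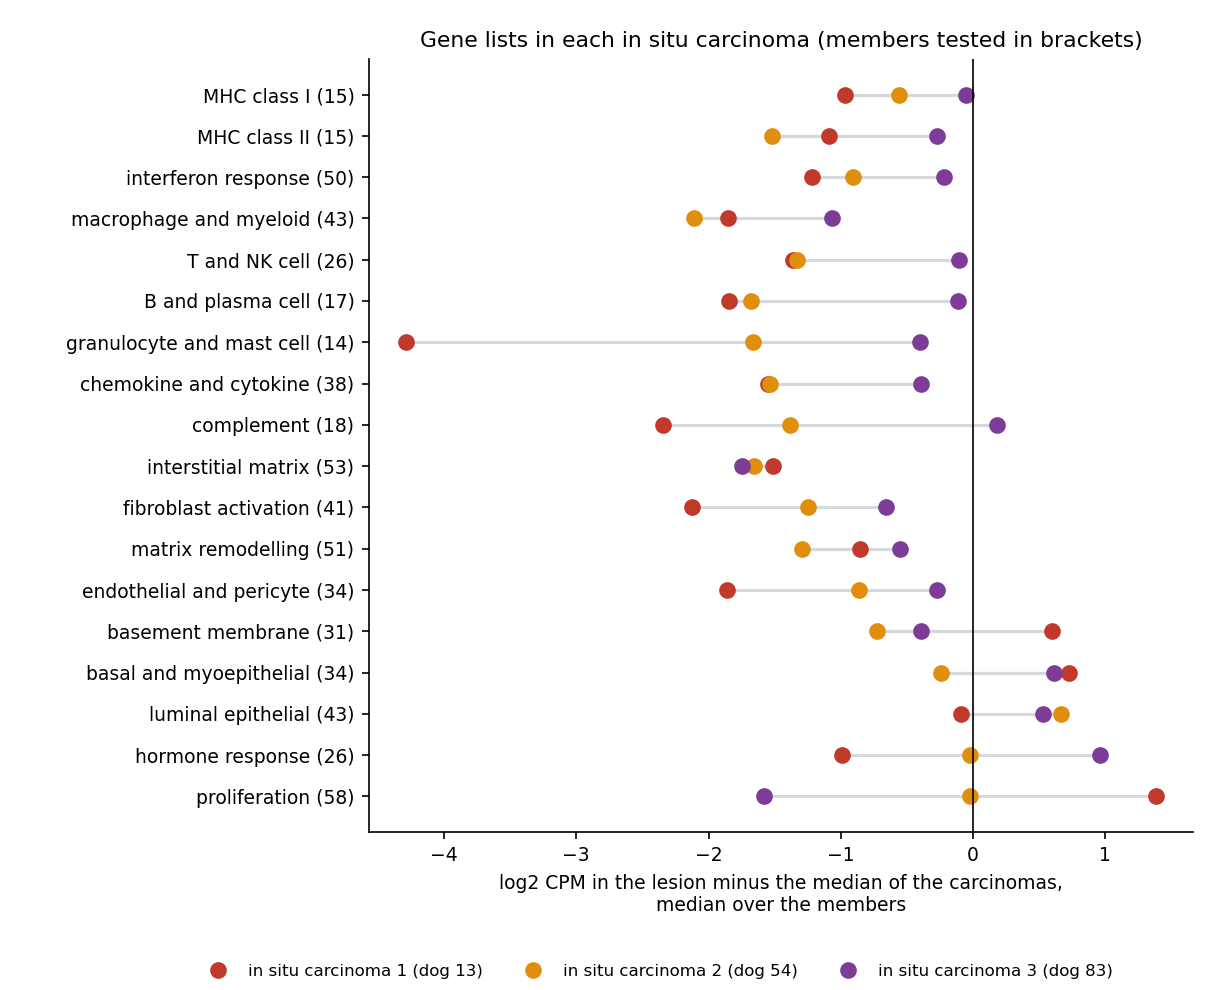
Median over the members of each gene list of the difference in log2 CPM between 1 in situ carcinoma and the median of the 15 carcinomas, with 1 point for each lesion and the number of members tested in brackets. Interstitial matrix lies at -1.51, -1.65 and -1.75 in lesions 1, 2 and 3, while proliferation lies at 1.38, -0.02 and -1.58.

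The 3 lesions differed in how far these genes lay below the carcinomas. For MHC class I the median difference in log2 CPM from the carcinoma median was -0.97, -0.56 and -0.05 in in situ carcinomas 1, 2 and 3. For MHC class II it was -1.09, -1.52 and -0.27, and for interferon genes -1.22, -0.91 and -0.22. In situ carcinoma 3 was thus near the carcinomas for antigen presentation and interferon genes, and it was also near them for T cell genes (-0.11) and B cell genes (-0.11). For myeloid genes the values were -1.85, -2.11 and -1.07, so that there in situ carcinoma 3 was low as well. Summed over the members, the myeloid list came to 2794, 861 and 1637 CPM in in situ carcinomas 1, 2 and 3, against 2370.3 to 6151 CPM in carcinomas with a median of 4135. The class II list came to 1104, 875 and 1798 CPM in the in situ carcinomas, against 1013 to 4873 CPM in carcinomas with a median of 2785. No member of either list was at 0 in all 3 lesions. The part of immune cell number in the lower MHC and interferon genes was not tested.

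Interstitial matrix genes were low in all 3 lesions as measured, and the size of the difference depended on the libraries fitted and on how dog entered. Of 53 members, 27 were lower and none higher at p under 0.05 among the 18 libraries without the block, with a median of -1.50, but 4 were lower with the block, with a median of -0.60, and 1 was lower against the small carcinomas, with a median of -0.08. In the 18 libraries with dog as a block, where dog 54 alone gives the contrast, 19 were lower and 1 higher, with a median of -1.68. With dog as a random effect in limma-voom, 26 were lower in the 18 libraries (4.31% of all genes), with a median of -1.44, and 9 in the 89 libraries (3.63%), with a median of -1.04. With the block in 89 libraries the count was 2 without in situ carcinoma 1, 0 without in situ carcinoma 2 and 6 without in situ carcinoma 3. FN1, fibronectin, had 293, 102 and 109.8 CPM in in situ carcinomas 1, 2 and 3, against 644, 1156 and 10638 CPM as the lowest, median and highest of the carcinomas. The groups did not overlap. Its log2 fold change was -3.78 ± 1.05 among the 18 libraries (adjusted p = 0.303 by edgeR) and -1.24 ± 1.06 with the block. Adenomas of the 3 dogs, by dog mean, also lay below the lowest carcinoma. The only adenoma of dog 13 had 493 CPM, the only adenoma of dog 83 had 154 CPM, and those of dog 54 averaged 279.8 CPM.

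VCAN, the proteoglycan versican of provisional matrix, had 20.2, 30.4 and 19.3 CPM in in situ carcinomas 1, 2 and 3, against 76.5, 193 and 599 CPM as the lowest, median and highest of the carcinomas. All 3 lesions were below all carcinomas, at a log2 fold change of -3.43 ± 0.70 among the 18 libraries and -2.08 ± 0.88 with the block. CILP, a matrix protein first described in cartilage, had 1.05, 1.02 and 1.60 CPM in the in situ carcinomas, against 3.05, 31.1 and 148 CPM as the lowest, median and highest of the carcinomas (log2 fold change -5.19 ± 1.18 among the 18 libraries and -2.76 ± 1.20 with the block). COL1A1, a chain of type I collagen, had 664, 332 and 119 CPM in the in situ carcinomas, against 175, 1328 and 13644 CPM as the lowest, median and highest of the carcinomas. It overlapped, and its log2 fold change was -3.01 ± 1.16 among the 18 libraries and -1.25 ± 1.08 with the block. COL3A1, a chain of type III collagen, differed by -2.47 ± 0.89 and -0.96 ± 0.85 in the same 2 fits.

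Of 41 fibroblast genes 5 were lower with the block and 18 among the 18 libraries without it, with medians of -0.62 and -1.13. In the fit that rests on dog 54 alone 14 were lower and 2 higher, with a median of -1.06. With dog as a random effect 22 were lower in the 18 libraries and 12 in the 89 libraries, with medians of -1.28 and -0.93. The count with the block was 2 without in situ carcinoma 1, 2 without in situ carcinoma 2 and 13 without in situ carcinoma 3. PRRX1, a transcription factor of mesenchymal cells, had 11.6, 23.4 and 17.9 CPM in in situ carcinomas 1, 2 and 3, against 30.1, 87.4 and 224 CPM as the lowest, median and highest of the carcinomas, with no overlap (log2 fold change -1.76 ± 0.69 with the block). FAP, a surface protease of activated fibroblasts, had 6.73, 21.8 and 21.02 CPM in the in situ carcinomas, against 5.92, 93.4 and 196 CPM as the lowest, median and highest of the carcinomas (log2 fold change -1.03 ± 0.94). POSTN, periostin, set in situ carcinoma 1 apart from the other lesions, with 520.4 CPM there and 20.4 and 16.8 CPM in in situ carcinomas 2 and 3, against 37.0, 499 and 1372 CPM as the lowest, median and highest of the carcinomas. TGFBI, an adhesion protein that transforming growth factor beta induces, did the reverse, with 29.2, 118 and 748 CPM in in situ carcinomas 1, 2 and 3, against 62.2, 481 and 1057 CPM as the lowest, median and highest of the carcinomas. SFRP2, a secreted Wnt modulator of fibroblasts, differed by -3.08 ± 1.32.

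Of 51 matrix remodelling genes 3 were lower and 1 higher with the block, and 17 lower without it among the 18 libraries. The lower count with the block was 8 without in situ carcinoma 3 (6% of all genes). It was 1 without in situ carcinoma 1 (1.48%) and 1 without in situ carcinoma 2 (1.99%). MMP1, the interstitial collagenase, had 0.419, 0.485 and 0.263 CPM in in situ carcinomas 1, 2 and 3, against 0.232, 9.50 and 122 CPM as the lowest, median and highest of the carcinomas (log2 fold change -4.03 ± 1.83), and all 3 lesions were below 14 of the 15. Endothelial and pericyte genes were lower in 0 of 34 with the block and in 3 among the 18 libraries without it, with medians of -0.28 and -0.93. PECAM1, an adhesion molecule of vessels, had 37.0, 71.0 and 179 CPM in the in situ carcinomas, against 40.7, 205 and 517 CPM as the lowest, median and highest of the carcinomas. Of 27 genes of epithelial to mesenchymal transition 2 were lower and 1 higher. The lower count there was 6 without in situ carcinoma 3 (6% of all genes) and 1 without in situ carcinoma 1 (1.48%). CD44, a hyaluronan receptor, differed by -1.14 ± 0.44, and VIM, the intermediate filament vimentin, had 408, 417 and 1397 CPM in the in situ carcinomas, against 592, 1781 and 2749 CPM as the lowest, median and highest of the carcinomas (log2 fold change -0.82 ± 0.55).

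**Figure D4:**
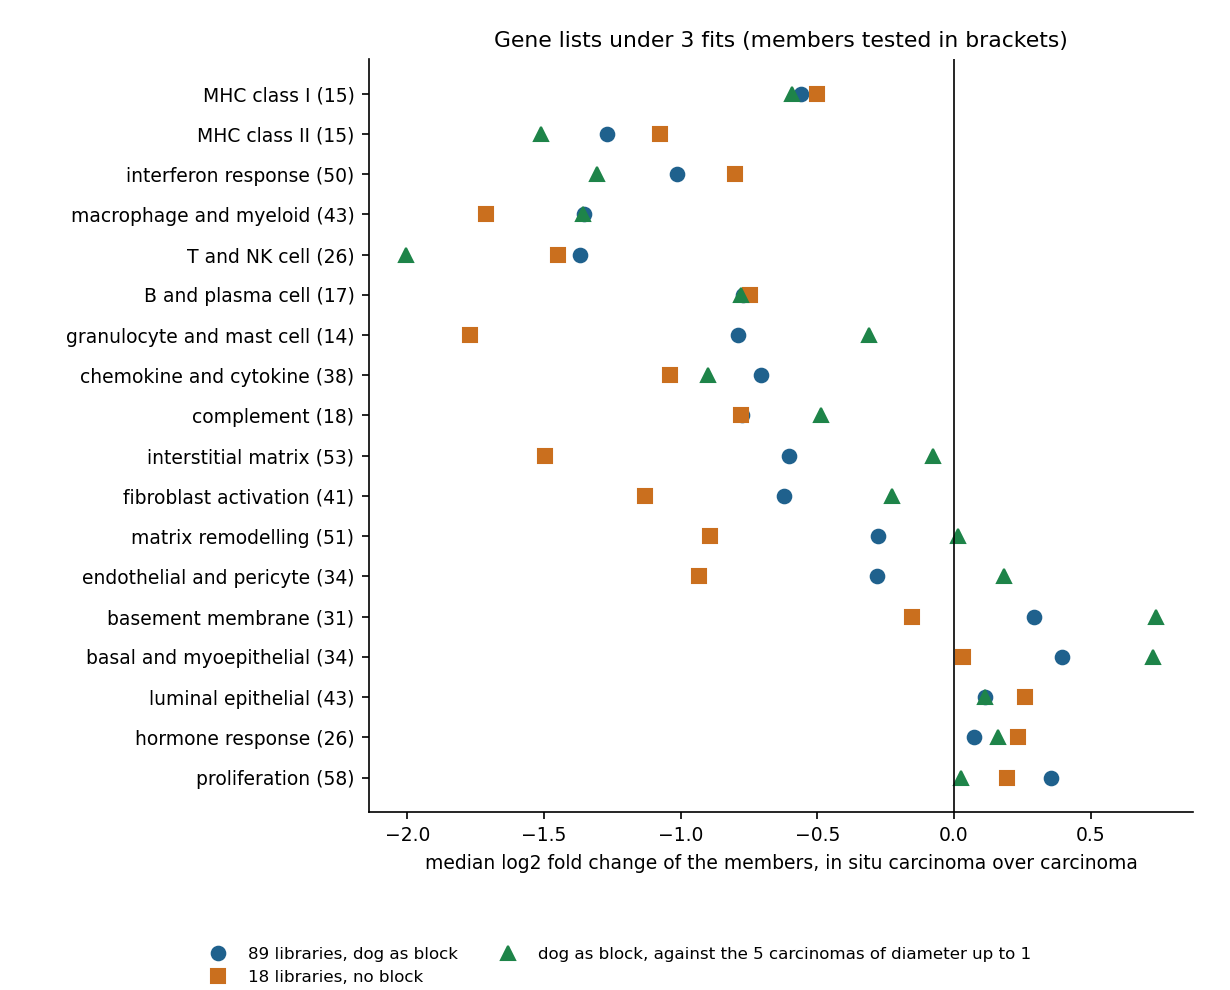
Median log2 fold change, in situ carcinoma over carcinoma, of the members of each gene list under 3 fits: 89 libraries with dog as block (circles), the 18 libraries with no block (squares) and the block fit against the 5 carcinomas of diameter up to 1 (triangles). Interferon response stays between -1.31 and -0.80, whereas interstitial matrix moves between -1.50 and -0.08 and basement membrane between -0.15 and 0.74.

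Basement membrane genes ran in the other direction from the rest of the matrix in the fit with the block. Of 31 members 5 were higher and none lower at p under 0.05, with a median of 0.29, and 12 were higher against the small carcinomas (2.76% of all genes), with a median of 0.74. Among the 18 libraries without the block 2 were higher (2.86% of all genes) and 3 lower, with a median of -0.15, so that the direction of the list depended on the fit. As measured, the median difference in log2 CPM from the carcinoma median was 0.60, -0.72 and -0.40 in in situ carcinomas 1, 2 and 3. Below the carcinoma median were 9, 24 and 17 of the 31 members in the same order of lesions. FREM1, an extracellular protein of the Fraser complex that anchors epithelium to its basement membrane, had 35.1, 37.9 and 108 CPM in in situ carcinomas 1, 2 and 3, against 2.22, 13.0 and 42.6 CPM as the lowest, median and highest of the carcinomas (log2 fold change 2.69 ± 0.80, adjusted p = 0.532 by edgeR). All 3 lesions were above 13 of the 15 carcinomas. Its partners FREM2 and FRAS1 differed by 2.08 ± 0.77 and 1.51 ± 0.67, with all 3 lesions above the carcinoma median for FREM2 and 2 of 3 for FRAS1.

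COL17A1, the collagen of hemidesmosomes, had 566, 38.7 and 482 CPM in in situ carcinomas 1, 2 and 3, against 4.07, 121 and 533 CPM as the lowest, median and highest of the carcinomas (log2 fold change 1.90 ± 0.66). In situ carcinoma 2 was below the carcinoma median, yet in its own dog the 3 carcinomas had 4.07, 76.0 and 15.2 CPM. LAMA1, a laminin chain, had 2119, 102 and 137 CPM in the in situ carcinomas, against 14.5, 93.2 and 1639 CPM as the lowest, median and highest of the carcinomas (log2 fold change 1.87 ± 0.85). The high value is again that of in situ carcinoma 1, and without this lesion 1 member of the list was higher (1.67% of all genes), with a median of -0.01. It was 9 without in situ carcinoma 2 (3.6%) and 8 without in situ carcinoma 3 (4.8%). COL4A1, a chain of type IV collagen, differed by -0.04 ± 0.61.

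Of 34 basal and myoepithelial genes 4 were higher with the block (median 0.39), 9 against the small carcinomas (median 0.73) and 0 among the 18 libraries without it (median 0.03). With the block it was 1 without in situ carcinoma 1, 7 without in situ carcinoma 2 and 5 without in situ carcinoma 3. NGFR, the low-affinity neurotrophin receptor of myoepithelium, had 60.8, 14.0 and 18.4 CPM in in situ carcinomas 1, 2 and 3, against 0.687, 8.58 and 54.7 CPM as the lowest, median and highest of the carcinomas (log2 fold change 1.78 ± 0.74). All 3 lesions were above the carcinoma median. KRT5, a basal keratin, had 74.7, 1256 and 842 CPM in the in situ carcinomas, against 24.0, 1084 and 4979 CPM as the lowest, median and highest of the carcinomas, and KRT14, its partner, had 221, 392.3 and 1986 CPM, against a lowest, median and highest carcinoma of 123, 982 and 4017 CPM. TP63, the transcription factor of basal cells, differed by 0.37 ± 0.55 and ACTA2, smooth muscle actin of myoepithelium and myofibroblasts, by 0.94 ± 0.94. For these 4 genes all lesions lay within the carcinoma range.

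Luminal epithelial genes were higher in 1 and lower in 1 of 43 members, with a median of 0.11. In the fit that rests on dog 54 alone 15 of them were higher (4.73% of all genes), with a median of 0.92. Leaving out in situ carcinoma 2, the lesion of that dog, gave 0 higher and 1 lower, with a median of -0.28. Leaving out all libraries of dog 54 also gave 0 higher (2.92% of all genes) and 1 lower, with a median of -0.50. ERBB3, a growth factor receptor of luminal cells, had 612, 1002 and 297 CPM in in situ carcinomas 1, 2 and 3, against 107, 248 and 570.1 CPM as the lowest, median and highest of the carcinomas (log2 fold change 0.81 ± 0.44). ESRP2, a splicing regulator of epithelial cells, had 28.5, 142 and 82.1 CPM in the in situ carcinomas, against 7.14, 30.0 and 74.8 CPM as the lowest, median and highest of the carcinomas (log2 fold change 0.98 ± 0.46). For both genes 2 of the lesions exceeded every carcinoma, namely in situ carcinomas 1 and 2 for ERBB3 and 2 and 3 for ESRP2. ERBB2, the HER2 receptor, had 325, 607 and 279 CPM in the in situ carcinomas, against 140.3, 308 and 452 CPM as the lowest, median and highest of the carcinomas, and in situ carcinoma 2 was above all carcinomas. CDH1, E-cadherin, differed by -0.34 ± 0.39.

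Hormone receptors and cell cycle genes ordered the 3 lesions in opposite ways. ESR1, the estrogen receptor, had 0.777, 36.9 and 142 CPM in in situ carcinomas 1, 2 and 3, against 5.51, 17.8 and 103 CPM as the lowest, median and highest of the carcinomas. In situ carcinoma 1 was below all carcinomas and in situ carcinoma 3 above all of them. PGR, the progesterone receptor that estrogen induces, had 0.179, 10.1 and 43.9 CPM in the in situ carcinomas, against 1.06, 3.93 and 13.0 CPM as the lowest, median and highest of the carcinomas, with the same order of lesions. PRLR, the prolactin receptor, had 6.82, 17.9 and 50.8 CPM in the in situ carcinomas, against 0.727, 6.72 and 46.8 CPM as the lowest, median and highest of the carcinomas. The log2 fold changes of the 3 receptors were 0.37 ± 1.01, 0.36 ± 0.91 and 0.49 ± 0.88, and 0 of 26 hormone response genes passed p under 0.05. Among the 18 libraries without the block 5 of the 26 were higher (2.86% of all genes) and 2 lower (4.62%). With the block but without in situ carcinoma 3, 2 were lower (6% of all genes). In the fit that rests on dog 54 alone the median was 0.52.

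MKI67, the proliferation antigen Ki-67, had 73.6, 19.6 and 0.547 CPM in in situ carcinomas 1, 2 and 3, against 2.05, 18.7 and 90.7 CPM as the lowest, median and highest of the carcinomas (log2 fold change 0.69 ± 0.87). MCM3, a subunit of the replicative helicase and the 1 of 58 proliferation genes that was higher at p under 0.05, had 256, 54.5 and 26.8 CPM in the in situ carcinomas, against 30.2, 47.5 and 124 CPM as the lowest, median and highest of the carcinomas (log2 fold change 0.95 ± 0.40). The count and direction of the list depended on single lesions. With the block 12 members were higher without in situ carcinoma 3, 7 without in situ carcinoma 2 and 0 without in situ carcinoma 1, with medians of 0.82, 0.52 and -0.39, against 0.36 with all 3 lesions. In the fit that rests on dog 54 alone 0 were higher and 2 lower, with a median of -0.53. For both MKI67 and MCM3 in situ carcinoma 3 was below every carcinoma, and for MCM3 in situ carcinoma 1 was above every carcinoma. Over the list, 0 of the 58 members were below the carcinoma median in in situ carcinoma 1, against 33 in in situ carcinoma 2 and 56 in in situ carcinoma 3.

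**Figure D5:**
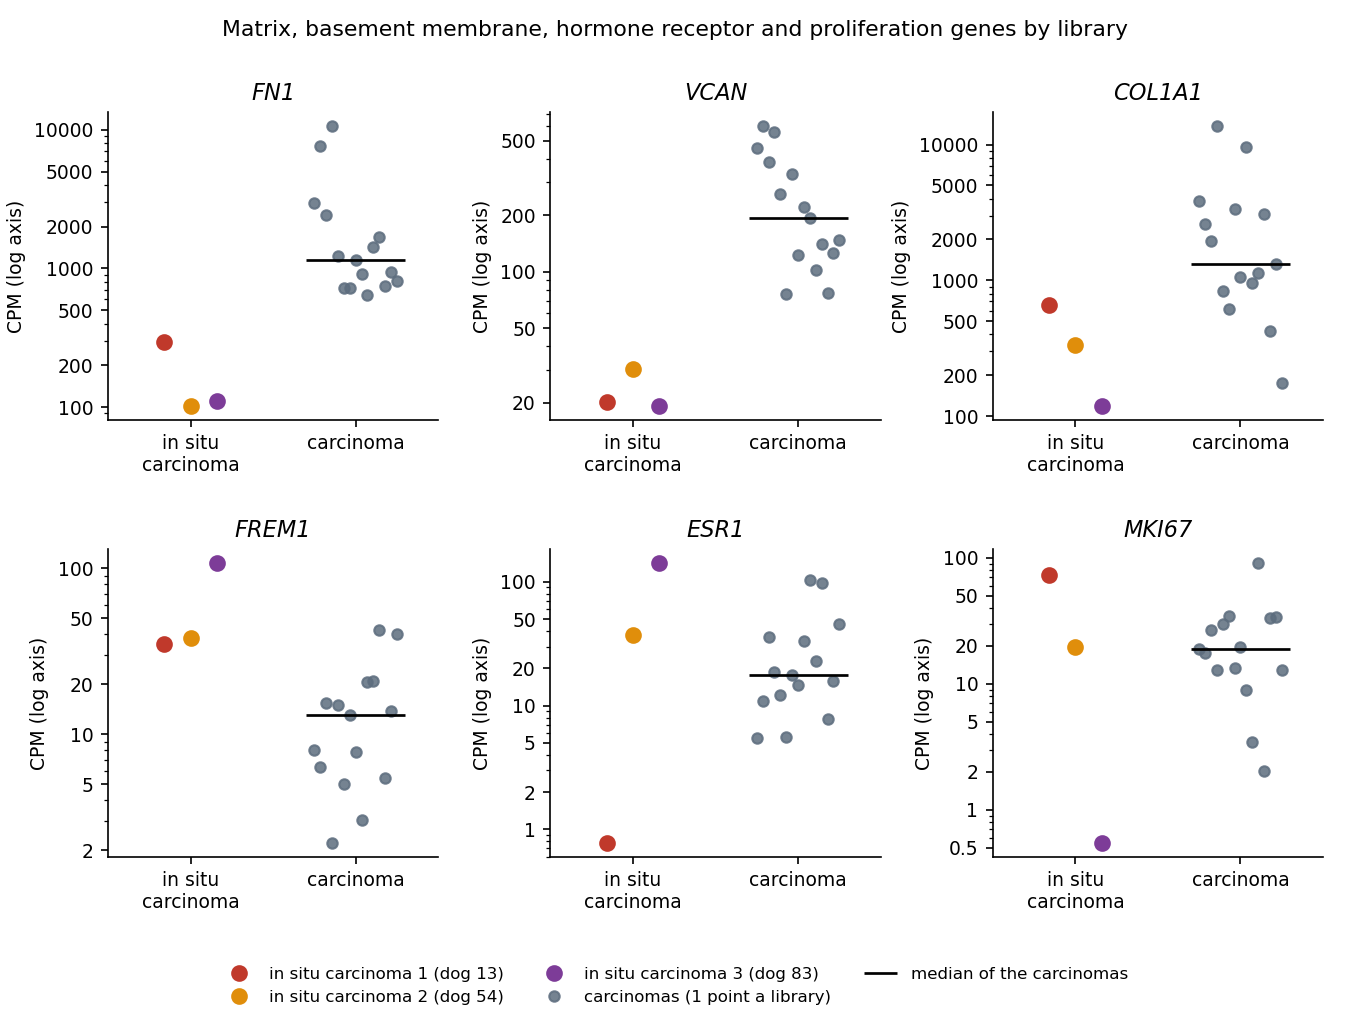
CPM (log axis) of FN1, VCAN, COL1A1, FREM1, ESR1 and MKI67, with the 3 in situ carcinomas left of the 15 carcinomas and the carcinoma median as a line. Each point is a library. All 3 lesions are below every carcinoma for FN1 and VCAN, while ESR1 runs 0.777, 36.9 and 142 CPM and MKI67 73.6, 19.6 and 0.547 CPM over lesions 1, 2 and 3.

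Outside the lists, genes of lowest p were taken by rule in each direction. The rule kept only genes with all 3 lesions on the fold change's side of the carcinoma median. All 3 lesions were above that median in 12.5% of all genes tested and below it in 14.7%. KREMEN1, a coreceptor for the Wnt antagonist Dickkopf, had 38.6, 33.9 and 9.87 CPM in in situ carcinomas 1, 2 and 3, against 1.80, 9.14 and 21.6 CPM as the lowest, median and highest of the carcinomas (log2 fold change 1.66 ± 0.44, adjusted p = 0.342 by edgeR). ZNRF3, a ubiquitin ligase that removes Wnt receptors from the surface, had 19.9, 25.7 and 5.41 CPM in the in situ carcinomas, against 1.75, 5.34 and 26.5 CPM as the lowest, median and highest of the carcinomas (log2 fold change 1.64 ± 0.47). In both genes in situ carcinoma 3 was near the carcinoma median. SEMA4C, a transmembrane semaphorin, had 188, 144 and 57.6 CPM in the in situ carcinomas, against 38.2, 54.0 and 174 CPM as the lowest, median and highest of the carcinomas (log2 fold change 1.10 ± 0.29). GCAT, a mitochondrial enzyme of threonine breakdown, and HPS4, which takes part in making lysosome-related organelles, differed by 1.17 ± 0.37 and 0.73 ± 0.23. CUX2, a homeobox transcription factor, and AKAP6, an anchor for protein kinase A, differed by 2.46 ± 0.82 and 1.56 ± 0.53. SEMA4A, a semaphorin of immune cells, and CAMK1D, a calcium-dependent kinase, were among those lower, at -1.41 ± 0.39 and -1.64 ± 0.47.

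Of the 59 genes in which all lesions were below all carcinomas, 42 had a symbol and 16 belonged to a list. SAMHD1 and SERPINA1 belonged to none and were picked after their values were seen. SAMHD1, an enzyme that depletes nucleotides and restricts viruses, had 14.4, 10.1 and 16.7 CPM in in situ carcinomas 1, 2 and 3, against 19.1, 43.1 and 165 CPM as the lowest, median and highest of the carcinomas (log2 fold change -2.31 ± 0.76). SERPINA1, the inhibitor of neutrophil elastase, had 8.52, 13.6 and 31.4 CPM in the in situ carcinomas, against 40.8, 96.5 and 356 CPM as the lowest, median and highest of the carcinomas (log2 fold change -2.17 ± 0.86). In the other direction 15 genes did not overlap, and the 6 with a symbol were RAB3IP, COPG2, CTTNBP2, NCOA1, IL17RE and STARD3. NCOA1, a coactivator of steroid receptors, had 93.0, 95.7 and 95.2 CPM in the in situ carcinomas, against 28.2, 58.8 and 76.5 CPM as the lowest, median and highest of the carcinomas, a narrow spread on the in situ side. With the block its log2 fold change was 0.46 ± 0.29.

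Few members passed in the lists for other tissue and for cell states. None of 13 adipocyte, 15 skeletal muscle, 32 hypoxia, 23 immediate early and 21 cholesterol genes passed p under 0.05 in either direction, nor did the 1 erythroid gene tested. Hypoxia genes still had a median of -0.57, near the -0.56 of MHC class I, and 27 of the 32 had a negative fold change. The skeletal muscle list had a median of -1.53 without any member passing, and its summed level was 563, 165 and 579 CPM in in situ carcinomas 1, 2 and 3, against 60.3 to 2579 CPM in carcinomas. Milk secretion genes were higher in 1 of 21, skin keratinocyte genes in 1 of 4 and nerve and Schwann cell genes in 1 of 9. Unfolded protein response genes were lower in 1 of 23, PDIA3, a disulfide isomerase that also serves class I loading, at -0.56 ± 0.24. Of these 23 genes 21 had a negative fold change, with a median of -0.37. The counts of lower genes were 6 for the unfolded protein response, 5 for hypoxia and 3 for immediate early genes without in situ carcinoma 3 (6% of all genes). Milk secretion genes were higher in 9 of 21 in the fit that rests on dog 54 alone and in 0 without in situ carcinoma 2, with medians of 1.67 and -0.96.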

How the data were processed

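The authors deposited 1 table of read counts per gene for each of the 89 libraries, raw and not normalized, with 32496 gene rows. Per the labels' protocols, pulverized tissue was lysed in Trizol, cleaned on RNeasy columns and made into PrepX mRNA libraries. Per the submitters' processing notes, HISAT2 and FastQC were used with the dog build CanFam3.1. Which program counted the reads, with which annotation and strand setting, is not given in the sources used here. The authors also deposited a table of scores per gene symbol, a normalized value whose making is not stated. It served to attach symbols only. Each score column was matched to the gene row with the same profile (median correlation 0.999911, lowest 0.917557), and of 11503 columns 10174 were used and 1329 were not. Unaligned reads made up 37.4% on average, reads in no gene 16.0% and ambiguous reads 0.078%, and these stayed out of library sizes and tests. No 2 libraries had identical counts (0 pairs, highest correlation 0.969).

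Genes were filtered with filterByExpr (minimum count 10, minimum total 15) and tested with edgeR 4.0.16 in R 4.3.3 (TMM, estimateDisp, robust glmQLFit, glmQLFTest) with detailed histology and dog in 1 fit. The labels tie each library to its dog, and the deviations of libraries of 1 dog from the type means correlated at 0.173 over 222 pairs, against -0.0219 over 3694 pairs of different dogs. Most library preparations follow the dog, so that preparation and dog cannot be told apart. CPM use TMM-scaled library sizes and are not set per length. Standard errors come from the fold change and the F statistic. Diameters, reads and RNA integrity numbers were compared by exact permutation tests (scipy 1.17.1). On simulated counts for this comparison with 20243 genes, the share of changed genes recovered was 1.28% at a log2 change of 1, 71.4% at 2 and 91.5% at 3, with 2 false calls. The simulation gave each gene 1 mean over all libraries, without differences between dogs or tissues, and a spread set by its abundance alone. Changed genes were drawn from those averaging above 1 in log2 CPM. The shares hold for these settings, and recovery under the spread of the real data was not tested.

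The comparison and the 29 gene lists were chosen with earlier results of these data known. List members were taken where tested under a symbol. Named genes are those called that average 1 or more in log2 CPM and have all 3 lesions on the same side of the carcinoma median, filled by lowest p up to 12 in each direction, a set of fixed genes such as ESR1, B2M and COL1A1, and up to 6 members of each list by lowest p. IL17RA, IL17RB, IL17RD, EMID1, TAPBP, ERAP2, CIITA, IRF1, JAK1, SPP1, CYBB, CSF1R, TLR8, MMP12, COL3A1, SAMHD1, SERPINA1, RAB3IP, COPG2, CTTNBP2, NCOA1 and STARD3 were added after their values were seen. Some genes that the rule took are not reported here. Alternatives were fits without dog, fits with a random dog effect (voom in limma 3.58.1), sums per dog, other size factors, no filter, DESeq2 1.42.0, covariates, subsets of carcinomas and omission of single libraries.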

Additional observations from a re-analysis of the deposited data

How the results depend on the processing

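The count of 2 called genes depended on the dog block. Without the block it was 14 in all 89 libraries and again 2 in the 18 libraries of the compared types, where IL17RE but not IL17RC was called. It was 0 in the 18 libraries with dog as a replicate block. With dog as a random effect it was 4 in 89 libraries and 0 in 18. It was 0 with counts summed per dog and type, against a 1.5-fold change, with sequencing run added, without 12 libraries of high skeletal muscle score, against the 5 carcinomas of diameter up to 1 and with log2 diameter as a covariate. It was 1 without dog 54, where EMID1 was called and neither receptor gene was, 17 in the 81 libraries with an RNA integrity number, which leave out in situ carcinoma 3, and 10 with that number as a covariate. DESeq2 called 243. Leaving out 1 in situ carcinoma gave 0 to 12 and leaving out 1 carcinoma 2 to 3. It stayed at 2 with no low-count filter, RLE size factors, an adipocyte or luminal score as a covariate and against carcinomas with no in situ or intraductal diagnosis. IL17RC and IL17RE kept a positive fold change in all 38 alternatives. Of 3914 pairs of a named gene and an alternative, 0 reversed a called direction, 66 changed the sign of an uncalled value, 23 lost a call and 43 gained one. Why the counts moved was not tested. Only 3 lesions carry the in situ side, and at this size a log2 change of 1 was rarely recovered in simulation, so genes that were not called may still differ. The shallowest of the 18 libraries, a carcinoma, held 6.23 M gene reads, and what depth limits was not tested.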
